A study of Mus musculus with 6 samples.

Results

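The genes described here are 44 mitosis, kinetochore and spindle genes, out of 28249 genes measured, in 6 single-colour Agilent arrays of mouse CD4+ T cells. They were chosen by name, with earlier results of these data known. Each is represented by its brightest probe, matched to the gene through a RefSeq accession. Of the 44, 25 reached a mean log2 intensity of 8 over the 6 arrays, an intensity of 256 on the linear scale, and are called bright below. The other 19 were dimmer and are described separately. Just inside the minimum were Cenpe and Cdca3, with means of 8.02 and 8.16, and just outside it Kif20a and Hmmr, with 7.93 and 7.45. The 25 bright members were compared on a scale made from the 8582 bright genes, whose log2 intensities were quantile-normalised among themselves, so that a level here is a log2 intensity on that common scale and never compares one probe with another.

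The study placed transgenic T cells in mice that received a heart graft. TEa cells, whose T cell receptor recognises a peptide of a donor MHC molecule, carried the CD45.2 allele and came from wild-type or Irf4-/- mice on the C57BL/6 background. They were transferred into CD45.1+ congenic mice on day -1, the recipients were given a Balb/c heart on day 0, and the transferred cells were sorted from the spleen on day 6. The WT IgG group held wild-type TEa cells from recipients labelled as treated with rat IgG, for which no dose is given. Irf4 encodes a transcription factor switched on when a T cell meets antigen. In the Irf4-/- IgG group, the TEa cells were labelled Irf4-/- and were in recipients given 400 µg of rat IgG on days 0, 3 and 5. The Irf4-/- blockade group held TEa cells of the same label from recipients given 200 µg of anti-PD-L1 and 200 µg of anti-CTLA-4 on the same days. All recipients were therefore transplanted, no group was left untreated, no wild-type cells received the blockade, and animal ages are not given in the labels. Each group has 2 arrays, described as independent experiments, and nothing in the labels ties array 1 of a group to array 1 of another.

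Before the results, several array-wide values need stating. The 2 Irf4-/- IgG arrays stood apart, with 65.8% and 75.2% of probes well above background, against 34.8% to 40.8% on the other 4. Summed marker intensities of other cells also differed between arrays. The summed intensity of 7 B cell markers was 198 and 219 in WT IgG, 1060 and 5660 in Irf4-/- IgG, and 370 and 379 in Irf4-/- blockade. For 8 myeloid markers the sums were 4169 and 5102, then 7727 and 65190, then 4278 and 6973, and for 8 erythroid markers 187 and 713, then 1514 and 47136, then 9660 and 5983. The 5 markers of plasma and germinal centre B cells summed to at most 138 outside the Irf4-/- IgG group and to 357 and 1810 within it. Of the 8 myeloid markers, 4 (Itgam, Csf1r, S100a8 and S100a9) were well above background on all 6 arrays, while Lyz2 and Cd14 were at 3.3 to 13.4 outside the Irf4-/- IgG group. Of 2 CD8 T cell markers, Cd8a lay between 4.5 and 23.7 on the 6 arrays and Cd8b1 between 503 and 863. The 8 CD4 T cell markers were well above background on all 6 arrays, as the label has it. The Irf4 probe itself went against the genotype labels: its intensities were 673 and 1068 in WT IgG, 2128 and 3073 in Irf4-/- IgG, and 2071 and 1703 in Irf4-/- blockade, a log2 difference of 1.43 (SE 0.13, limma adjusted p = 0.0175) between Irf4-/- IgG and WT IgG. Whether that probe lies in the deleted part of the gene was not tested, so the groups are named throughout by their labels. In sorted cell pools, fewer dividing cells and less of these RNAs per cell cannot be told apart.

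As background, a cell enters mitosis when cyclin-bound Cdk1 becomes active, helped by the Polo-like and Aurora kinases. Kinetochores then assemble on centromeres and catch spindle microtubules, and the spindle checkpoint holds back the anaphase-promoting complex until every chromosome is attached. The RNAs of most of these proteins are made in G2 and mitosis and fade afterwards, so they are widely used as a read-out of cycling cells, and T cells that have met antigen in the spleen divide repeatedly in the days that follow.

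The bright members were lowest in Irf4-/- IgG, intermediate in WT IgG and highest in Irf4-/- blockade. The group means had that order for 22 of 25 members (88.0%) and for 23.2% of all bright genes. For 16 of 25 (64.0%) every one of the 6 arrays kept it, against 5.43% of all bright genes. The exceptions by group mean were Cks2, Spc24 and Pttg1. Most of these differences did not pass a limma test adjusted over all 8582 genes, which with 2 arrays a group had 3 residual degrees of freedom. Because the minimum was set on the mean of all 6 arrays, a member that was high in only some arrays could pass on those arrays alone, so the counts below describe the 25 and not all 44.

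**Figure D1:**
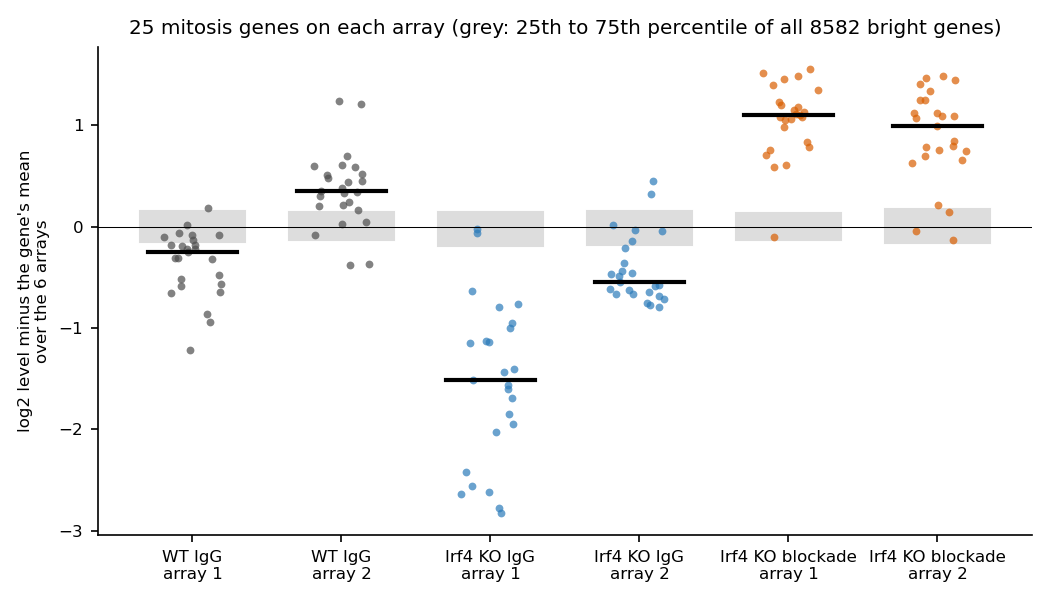
Each point is 1 of the 25 bright mitosis genes, plotted as its log2 level on an array minus its own mean over the 6 arrays. Black lines mark the members' median, and grey boxes span the 25th to 75th percentile of all 8582 bright genes. The members' median was -1.51 on array 1 of Irf4-/- IgG and 1.1 and 0.99 on the Irf4-/- blockade arrays, while the grey boxes stayed around 0.

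Relative to its own mean over the 6 arrays, the median member stood at -0.25 and 0.36 in WT IgG, at -1.51 and -0.55 in Irf4-/- IgG, and at 1.1 and 0.99 in Irf4-/- blockade. Array 1 of Irf4-/- IgG held the lowest value of 23 of the 25 members. The medians of all bright genes lay between -0.02 and 0.01 on the same arrays.

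In the comparison of Irf4-/- IgG with WT IgG, 23 of 25 members were lower in the Irf4-/- cells and 2 were higher. The median log2 difference was -1.06, against -0.02 for all bright genes, and the members ran from -2.08 (Birc5) to 0.93 (Spc24). No member passed limma at an adjusted p of 0.05, where 1.86% of all genes did. At an unadjusted p of 0.05, 14 members were lower and 1 was higher, against 23.4% of all genes in either direction. Both Irf4-/- IgG arrays lay below both WT IgG arrays for 17 members, which compares with 29.2% of all genes. The smallest adjusted p was 0.0739, for Prc1.

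By group mean, 24 of 25 members were higher in Irf4-/- blockade than in Irf4-/- IgG, with a median log2 difference of 2.02 against 0.03 for all bright genes. Only Cenpw passed limma, and 0.326% of all genes did. At an unadjusted p of 0.05, 21 members were higher and none was lower, against 28.5% of all genes in either direction. For 23 members both blockade arrays lay above both Irf4-/- IgG arrays, against 34.0% of all genes. Adjusted p-values of those 21 members lay between 0.0396 and 0.144. The other 4 were Cenpe, Spc24, Mki67 and Pttg1, with adjusted p of 0.292, 0.272, 0.410 and 0.508.

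Against WT IgG, the Irf4-/- blockade arrays were higher for 24 of 25 members, with a median log2 difference of 1.13 against 0.00 for all bright genes. That median was 0.72 without WT IgG array 1, with 4 members negative, and 1.44 without WT IgG array 2. Cenpw again was the member that passed, beside 1.11% of all genes. At an unadjusted p of 0.05, 14 members were higher and none was lower, against 19.2% of all genes in either direction. In 21 members both blockade arrays exceeded both WT IgG arrays, against 27.7% of all genes. These 3 comparisons share their arrays, each group serving in 2 of them, so their agreement is not separate evidence.

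**Figure D2:**
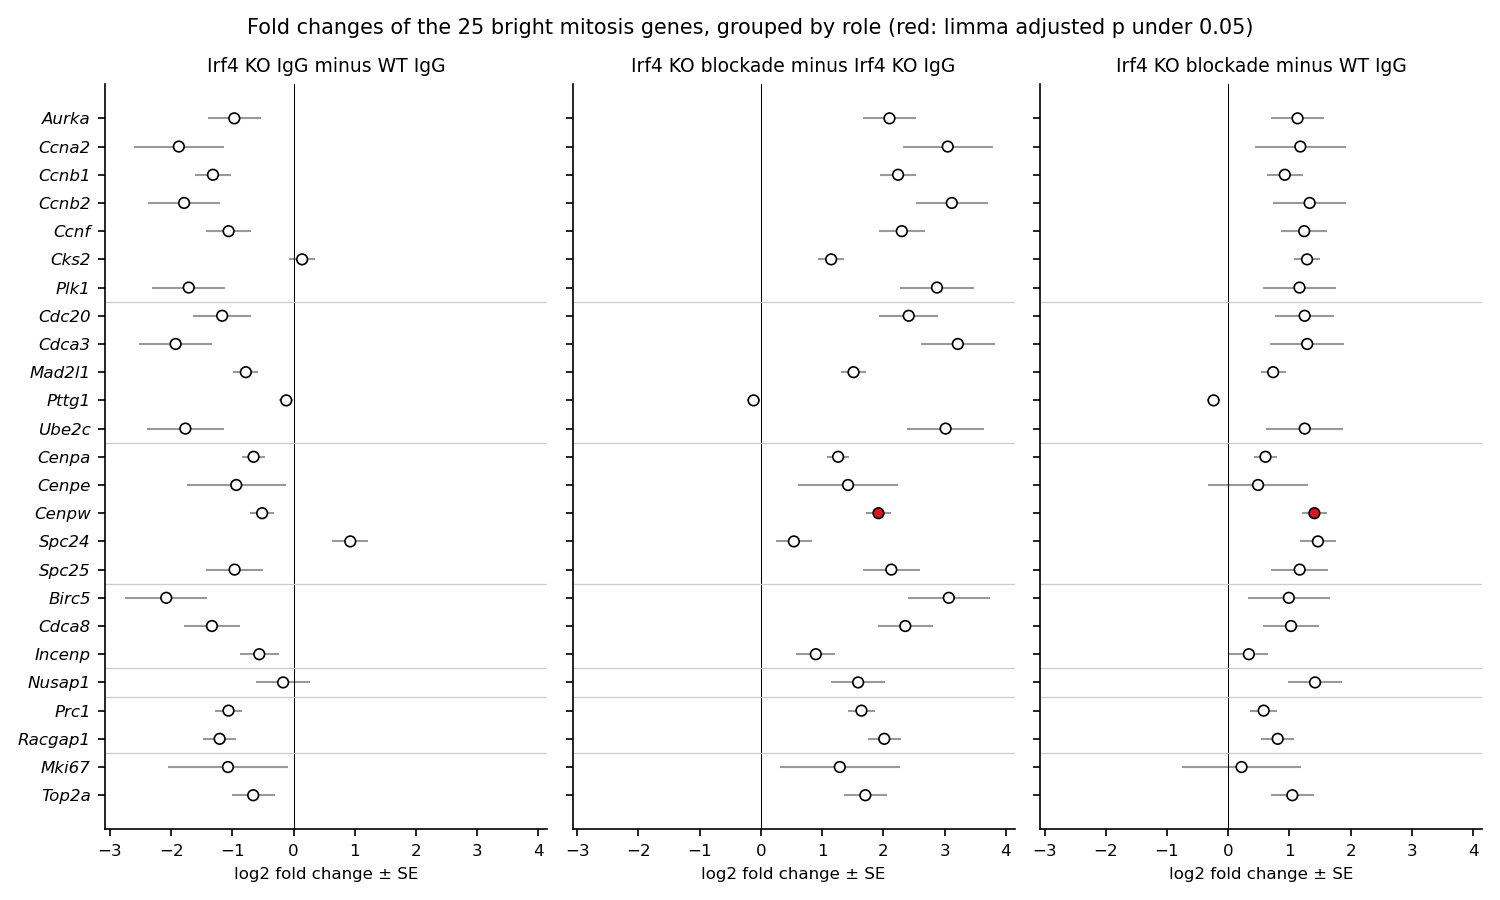
Log2 fold changes with their standard errors for the 25 bright members in the 3 comparisons, grouped by role from mitotic entry at the top to chromosome structure at the bottom. The red points mark Cenpw, the member with a limma adjusted p under 0.05. Most points lie left of 0 in the first panel and right of 0 in the other two, and Pttg1 stays near 0 in all of them.

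Among the genes of mitotic entry, the cyclins had some of the widest gaps between groups. Ccnb2, a B-type cyclin that activates Cdk1, had log2 levels of 9.38 and 10.04 in WT IgG, 7.0 and 8.84 in Irf4-/- IgG, and 11.11 and 10.97 in Irf4-/- blockade. The 3 groups did not overlap. Its log2 difference was -1.79 (SE 0.59, limma adjusted p = 0.161) between Irf4-/- IgG and WT IgG and 3.12 (SE 0.59, adjusted p = 0.0709) between blockade and Irf4-/- IgG, an 8.69-fold higher level. Ccna2, the cyclin of S phase and G2, was at 8.55 and 9.27, then 5.85 and 8.21, then 10.16 and 10.01 in the same order of groups. Its first Irf4-/- IgG array was lower than the second by more than 2 log2 units, and the blockade difference of 3.05 (SE 0.74) had an adjusted p of 0.0813. Ccnb1, the other main B-type cyclin, was steadier between arrays, at 8.81 and 9.22, 7.29 and 8.11, and 9.87 and 10.01, and its blockade difference of 2.24 (SE 0.30) had an adjusted p of 0.0536. Ccnf, whose product is the substrate-binding part of a ubiquitin ligase, was at 9.31 and 10.14, 8.23 and 9.1, and 10.90 and 11.03.

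The kinases of this group followed the same order. Plk1, the Polo-like kinase that promotes mitotic entry and spindle assembly, was at 9.37 and 10.23 in WT IgG, 7.20 and 8.97 in Irf4-/- IgG, and 10.84 and 11.08 in blockade. Aurka, the Aurora kinase of the centrosomes, was at 9.03 and 9.56, then 7.66 and 8.99, then 10.41 and 10.44, so that its groups did not overlap, although the upper Irf4-/- IgG array almost met the lower WT IgG array. Cks2, a small subunit that binds Cdk1, departed from the pattern: at 10.01 and 10.22 in WT IgG and 9.96 and 10.55 in Irf4-/- IgG those groups overlapped, with a log2 difference of 0.14 (SE 0.21, adjusted p = 0.731) that turned to -0.84 under scaling by the 75th percentile. Its blockade levels of 11.43 and 11.38 were nevertheless above both, by 1.15 (adjusted p = 0.0709) and 1.29 (adjusted p = 0.0686).

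Genes of the checkpoint and of the anaphase-promoting complex held both extremes of the blockade comparison. Cdca3, a target of that complex that helps degrade the Cdk1 inhibitor Wee1, was at 7.98 and 8.76 in WT IgG, 5.53 and 7.37 in Irf4-/- IgG, and 9.68 and 9.65 in blockade. Its difference of 3.22 (SE 0.60, limma adjusted p = 0.0709), or 9.30-fold, was the largest of the 25 members in that comparison. Cdca3 only just met the minimum, with a mean log2 intensity of 8.16. Before normalisation its intensity was highest in blockade, at 752 and 563, and 39.0 on array 1 of Irf4-/- IgG. Ube2c, the ubiquitin-conjugating enzyme that works with the complex, was at 9.23 and 9.77, 6.71 and 8.75, and 10.72 and 10.77. Cdc20, the activator of the complex at the start of anaphase, was at 10.06 and 10.45, 8.34 and 9.85, and 11.63 and 11.38. In both genes the 3 groups were separate, and array 1 of Irf4-/- IgG was well below array 2. Mad2l1, the checkpoint protein that holds Cdc20 inactive, showed smaller gaps, at 8.73 and 9.19, 8.0 and 8.37, and 9.70 and 9.69, with differences of -0.78 (SE 0.20, adjusted p = 0.110) and 1.51 (SE 0.20, adjusted p = 0.0536).

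Pttg1, which encodes securin, the inhibitor of the protease that cuts cohesin at anaphase, hardly varied. Its levels were 11.93 and 11.80 in WT IgG, 11.73 and 11.76 in Irf4-/- IgG, and 11.64 and 11.61 in blockade, the last being the lowest of the 6. The log2 differences were -0.12, -0.12 and -0.24 (SE 0.11 each, limma adjusted p = 0.560, 0.508 and 0.323). No spot on any array was flagged as saturated. The direction of its blockade difference turned to 1.04 when arrays were scaled by their 75th percentile.

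At the centromere and kinetochore, Cenpw gave the difference that passed. Cenpw, a histone-fold subunit of the inner kinetochore, was at 8.92 and 9.36 in WT IgG, 8.45 and 8.82 in Irf4-/- IgG, and 10.54 and 10.56 in blockade. Both blockade arrays stood more than 1 log2 unit above the other 4 and nearly coincided. It rose with blockade by 1.92 (SE 0.20, limma adjusted p = 0.0396), or 3.79-fold, against Irf4-/- IgG, and was higher by 1.41 (SE 0.20, adjusted p = 0.0495), or 2.65-fold, against WT IgG. Both calls lie close to the threshold and were lost under several of the alternatives given in the closing section. The difference of -0.51 (SE 0.20, adjusted p = 0.201) between Irf4-/- IgG and WT IgG did not pass.

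The other kinetochore members varied among themselves. Cenpa, the histone H3 variant that marks the centromere, was at 9.37 and 9.78, 8.77 and 9.07, and 10.14 and 10.22, with small but separate groups. Spc25 and Spc24 are partners within the Ndc80 complex, which binds microtubules, but their values differed. Spc25 was at 8.87 and 10.03 in WT IgG, 8.0 and 8.97 in Irf4-/- IgG, and 10.72 and 10.51 in blockade. Spc24 was at 8.23 and 9.06, then 9.38 and 9.77, then 10.15 and 10.08. Spc24 is thus the single bright member whose Irf4-/- IgG arrays both exceeded the WT IgG arrays, by 0.93 (SE 0.29, limma adjusted p = 0.149; -1.63 when arrays were scaled by their median), and its blockade difference against WT IgG, 1.47 (SE 0.29, adjusted p = 0.0853), was the largest of the members. Cenpe, the kinetochore motor that carries chromosomes to the spindle equator, was at 7.10 and 9.28, 6.60 and 7.90, and 9.17 and 8.18. Its WT IgG arrays differed by 2.18, so WT IgG overlapped both other groups.

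Of the chromosomal passenger complex, which corrects faulty attachments and guides cytokinesis, 3 of 4 members were bright. Birc5, which encodes survivin, was at 10.79 and 11.48 in WT IgG, 8.0 and 10.11 in Irf4-/- IgG, and 12.23 and 12.02 in blockade. Its -2.08 (SE 0.67, limma adjusted p = 0.153) was the largest negative difference from WT IgG among the members, and blockade exceeded Irf4-/- IgG by 3.07 (SE 0.67, adjusted p = 0.0766). Cdca8, which encodes borealin, was at 9.82 and 10.64, 8.28 and 9.52, and 11.31 and 11.21. Incenp, the scaffold of the complex, moved less, at 10.98 and 11.75, 10.53 and 11.08, and 11.90 and 11.51, and its groups overlapped except between blockade and Irf4-/- IgG.

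Among the remaining roles, the central spindle genes had replicates close to each other. Prc1, which bundles antiparallel microtubules, was at 9.03 and 9.47, 7.95 and 8.43, and 9.87 and 9.79, with differences of -1.06 (SE 0.22, limma adjusted p = 0.0739) and 1.64 (SE 0.22, adjusted p = 0.0536). Racgap1, part of centralspindlin, was at 9.08 and 9.49, 7.75 and 8.40, and 10.23 and 9.95, with differences of -1.21 (SE 0.27, adjusted p = 0.0819) and 2.02 (SE 0.27, adjusted p = 0.0536). The 3 groups were separate in both genes. Nusap1, a spindle protein that stabilises microtubules near chromosomes, was at 7.73 and 8.62, 7.45 and 8.56, and 9.75 and 9.44, so its IgG groups overlapped and blockade stood above them.

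The pair of chromosome structure genes behaved differently from each other. Top2a, the topoisomerase that untangles sister chromatids, was at 9.23 and 10.09, 8.67 and 9.34, and 10.87 and 10.54, with blockade above all other arrays. Mki67, whose protein Ki-67 coats mitotic chromosomes and is the common stain for cycling cells, was at 8.37 and 10.22 in WT IgG, 6.98 and 9.46 in Irf4-/- IgG, and 10.06 and 8.96 in blockade. All 3 groups of Mki67 overlapped, its standard error of 0.98 was the largest of the 25 members, and none of its differences passed (limma adjusted p = 0.546, 0.410 and 0.928).

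**Figure D3:**
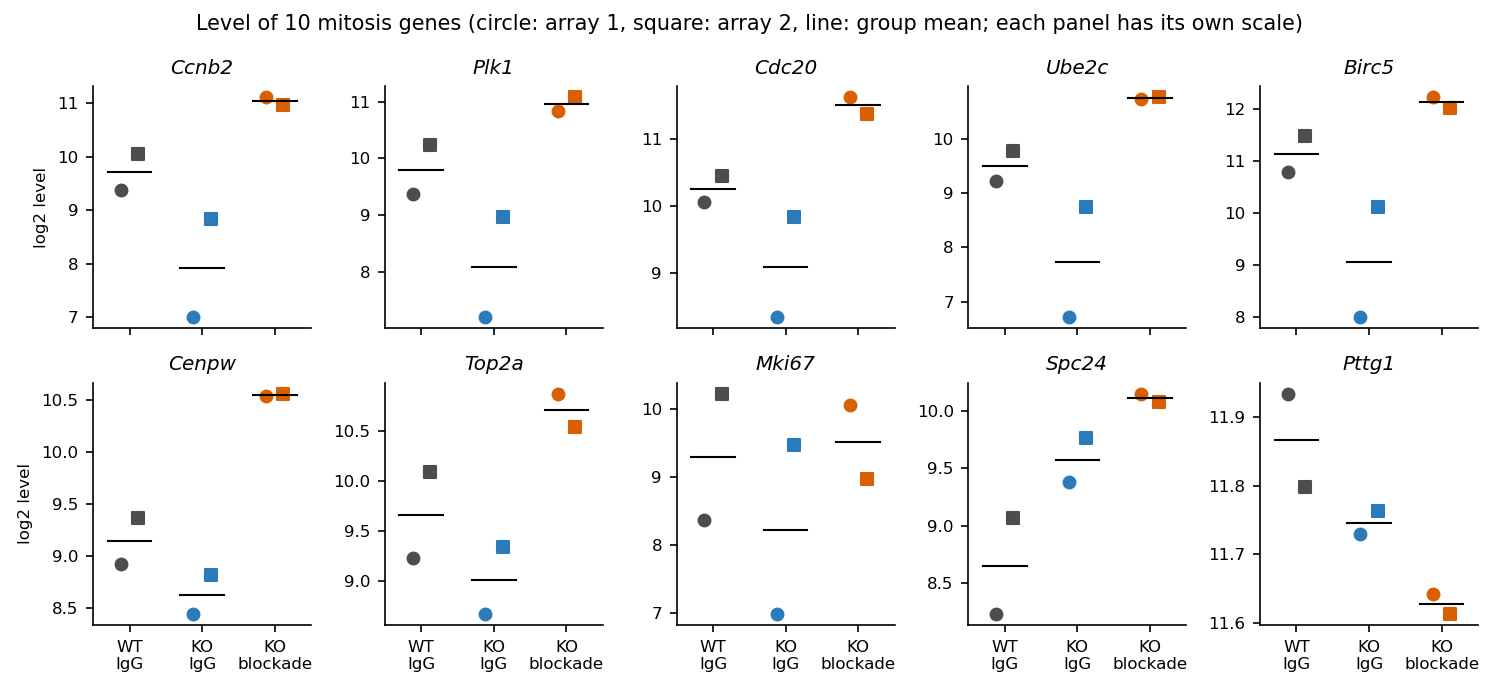
Log2 levels of 10 members on the 6 arrays, with array 1 as a circle, array 2 as a square and the group mean as a line; each panel has its own axis. In Ccnb2, Plk1, Cdc20, Ube2c, Birc5 and Cenpw the groups do not overlap, in Mki67 all of them do, and the Pttg1 axis spans only 11.61 to 11.93.

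In the IgG groups the replicates differed as a block, and in a way that most genes did not. Array 2 was above array 1 for 24 of 25 members in WT IgG (median 0.68, highest Cenpe at 2.18) and for all 25 in Irf4-/- IgG (median 0.96, highest Mki67 at 2.48). In Irf4-/- blockade it was above for 7 of 25, with a median of -0.08 and Mki67 lowest at -1.1. Over all 8582 bright genes the medians were -0.01, 0.02 and 0.00. The members' median differences of 0.68, 0.96 and -0.08 were exceeded in size by 6.26%, 4.61% and 67.3% of all bright genes in the respective groups. In blockade the median absolute difference was 0.14 for the members and 0.14 for all bright genes.

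Other values moved with these replicate differences. Array 2 of Irf4-/- IgG, where the members were higher, was also the array with the most B cell, myeloid and erythroid marker signal. On the slide, WT IgG array 1, Irf4-/- IgG array 1 and blockade array 2, on which the members' medians were the lower of their groups, lay in row 2, and the other 3 arrays in row 1. With slide row as a block the medians stayed at -1.06, 2.02 and 1.13. In that fit 1, 0 and 0 members passed limma, beside 1.03%, 0% and 0.373% of all bright genes. The part of the marker signal in the result was not tested. Leaving out Irf4-/- IgG array 2 gave a median of -1.56 against WT IgG and of 2.62 for blockade against Irf4-/- IgG. Without array 1 of that group the medians were -0.51 and 1.68. In these fits the lone array is assumed to vary as the other groups do.

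Some members had further probes. Of these, 16 probes of 14 genes were well above background on all 6 arrays. Their log2 differences were taken after centring each array on its bright-gene median, without quantile normalisation. They had the sign of the main probe in 13 of 16 for Irf4-/- IgG against WT IgG and 14 of 16 for blockade against Irf4-/- IgG. For blockade against WT IgG it was 16 of 16. The probes of opposite sign were a Ccnb1 probe (0.92) in the first comparison and the second probes of Spc25 (2.45 and -1.12) and Ccnf (1.08 and -1.03) in the first and the next. The median of the 16 probes was -0.47, 1.33 and 1.1 in the 3 comparisons, against -0.85, 1.95 and 1.01 for their main probes. Among the agreeing probes of the first comparison, another Ccnb1 probe (-0.009) and that of Cdca8 (-0.003) were close to 0. Kif23 agreed there by being higher on both of its probes (1.63 and 1.33). Second probes well above background on only 5 arrays were not counted. The one of Cenpf read 3.12 and -2.05 in the first comparisons, where its main probe read -0.51 and 0.94. That of Aurkb read 0.85 and 0.37, where its main probe read -0.96 and 2.57. That of Ect2, at -0.06 and 1.54, kept the signs of its main probe. In blockade against WT IgG all of them were positive, as were their main probes. Probes of a gene read the same RNA, so they are no further replicates.

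The 19 dim members were read from a fit of all 28249 genes, in which each array was scaled by its 75th percentile of intensity. On that scale the 8582 bright genes as a whole had a median of -1.05 in Irf4-/- IgG against WT IgG and of 1.09 in blockade against Irf4-/- IgG. Over all 28249 genes the medians were 0.01 and -0.11, so the reading of a dim member depends on the reference. The dim members' medians were -1.14, close to the bright-gene median but below that of all genes, and 2.20, above both. In a quantile-normalised fit with a log2 minimum of 5, the 43 members included, bright and dim, had medians of -1.23 and 2.26. All genes in that fit had medians of -0.09 and 0.09. For blockade against WT IgG on the 75th percentile scale, the dim members' median was 1.45, and 19 of 19 were higher. The medians there were 0.05 for the bright genes and 0.08 for all genes. No gene of the 28249 passed limma in that comparison, and at an unadjusted p of 0.05 11 dim members were higher, against 7.64% of all genes in either direction.

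By limma at an adjusted p of 0.05 on this scale, 5 dim members were lower in Irf4-/- IgG than in WT IgG, where 27.4% of all genes were, and 1 was higher, where 31.5% were. In blockade against Irf4-/- IgG, 16 were higher, where 27.9% of all genes were, and 1 was lower, where 30.9% were. The scale shifts bright genes as a whole: 73.6% of the 8582 were called lower in the first of these comparisons and 73.5% higher in the other, so the members' counts are not read as particular to them. In the quantile-normalised fit with a minimum of 5, 1 of 43 members passed in the first, beside 6.59% of all genes, and 10 of 43 in the other, beside 5.90%, the dim ones being Ect2, then Bub1, Kif20a and Ect2. The 5 lower on the 75th percentile scale were Cdk1, the kinase at the centre of mitotic entry, Nuf2, Aurkb, Kif20a and Ect2. Cdk1 had intensities of 48.7 and 157 in WT IgG, 27.4 and 95.2 in Irf4-/- IgG, and 245 and 185 in blockade. Its scaled differences were -1.98 (SE 0.57, adjusted p = 0.0326) and 3.61 (SE 0.57, adjusted p = 0.00879). Aurkb, the kinase of the chromosomal passenger complex, was at 56.4 and 98.0, 19.7 and 99.8, and 210 and 156. It was not well above background on the first Irf4-/- IgG array, and its second probe went the other way against WT IgG. In the fit with a minimum of 5, the adjusted p against WT IgG was 0.127 for Cdk1, 0.171 for Nuf2, 0.159 for Aurkb, 0.132 for Kif20a and 0.0418 for Ect2.

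Several other dim members also dropped to background on an array, and none did so on both arrays of a group. Nuf2, a partner of Ndc80, was at 96.3 and 257, then 22.2 and 166, then 398 and 286, and like Anln, an actin-binding protein of the cleavage furrow, it was not well above background on array 1 of Irf4-/- IgG. Ttk, the checkpoint kinase also called Mps1, was not well above background on array 1 of either IgG group, nor was Kif2c, a microtubule-depolymerising kinesin, on array 1 of WT IgG. Kif20a, a motor of the central spindle, was at 128 and 284, 93.4 and 251, and 551 and 446, with a scaled blockade difference of 3.25 (SE 0.39, limma adjusted p = 0.00658). Ect2, the exchange factor that starts furrowing, had scaled differences of -1.82 (SE 0.34, adjusted p = 0.0122) and 2.81 (SE 0.34, adjusted p = 0.00666).

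Ndc80 ran the other way. The gene encodes the microtubule-binding subunit that gives its complex its name, yet its probe read 48.3 and 67.4 in WT IgG, 336 and 1459 in Irf4-/- IgG, and 104 and 62.8 in blockade. Both Irf4-/- IgG arrays were above the other 4. Its scaled difference was 2.42 (SE 0.50, limma adjusted p = 0.0144) against WT IgG and -1.57 (SE 0.50, adjusted p = 0.0434) in blockade against Irf4-/- IgG, opposite in sign to those of Nuf2 (-2.58 and 4.03). In the quantile-normalised fit with a minimum of 5, its adjusted p was 0.0516 and 0.0854. Ndc80 has no other probe here, and the higher reading coincides with the larger share of probes above background on those arrays. Its part in the Ndc80 values was not tested.

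Kif23, the motor of centralspindlin, was the other dim member with a positive difference from WT IgG, 0.34 (SE 0.28, limma adjusted p = 0.328) on the scaled values, and with intensities of 47.8 and 89.6, 166 and 220, and 113 and 73.2. The differences of Foxm1, the transcription factor that drives many G2 genes, were -1.05 (adjusted p = 0.0725) and 1.89 (adjusted p = 0.0153), and those of Cdc25c, the phosphatase that activates Cdk1, -0.21 and 2.10. The checkpoint kinases Bub1 and Bub1b had blockade differences of 2.32 and 1.84, and the spindle genes Kif11, Kif4, Kif2c, Tpx2 and Hmmr lay between 1.88 and 3.05, all passing on this scale. Cenpf, a kinetochore protein, and Kif23 did not pass in blockade against Irf4-/- IgG, at 1.95 (adjusted p = 0.102) and 0.48 (adjusted p = 0.183).

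**Figure D4:**
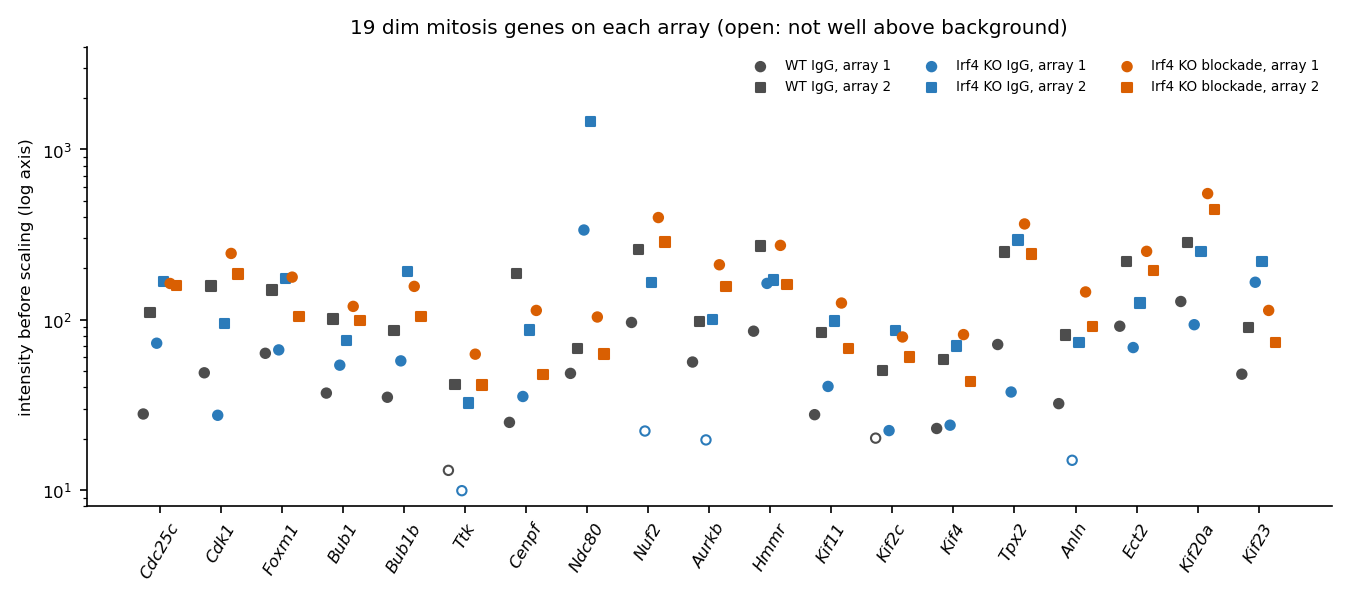
Intensities of the 19 dim members before scaling, on a log axis, with array 1 as circles, array 2 as squares, groups by colour and open symbols for spots not well above background. Ndc80 stands out with both Irf4-/- IgG arrays, at 336 and 1459, above the other 4, while Nuf2, Aurkb and Anln have an open symbol on array 1 of that group.

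Late cell cycle genes are known for a short CHR element bound by the MuvB complex, near which NF-Y boxes lie. RefSeq promoter windows, 300 bases long and running from 250 bases before to 50 after the annotated start (build GRCm38.p6), were found for 36 of 44 members, in 38 windows. The CHR letters TTTGAA were present on either strand in 29 of 38 windows, against 17.9% of all 32851 windows in the table and 12.2% of those of bright genes. The variant TTCGAA was in 3 of 38, against 1.56% of all windows. The NF-Y letters CCAAT were in 30 of 38, against 37.4%, and the GC box letters GGGCGG in 30 of 38, against 35.7%; the latter share was 63.5% among bright genes. None of these motifs contains another. Either CHR form began within 100 bases before to 50 after the start in 29 of 38 windows and in 8.59% of all windows. These are matches of letters and not shown binding sites.

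The windows of 4 members are printed because they belong to the members with the highest mean intensity among those with a CHR match. Capitals mark either CHR form on either strand, and the letters run 5′ to 3′ along the gene. Cdc20 is on chr4:118437294-118437593, Cdca8 on chr4:124936868-124937167, Ccnf on chr17:24251360-24251659 and Top2a on chr11:99024140-99024439, all on the minus strand of GRCm38.p6.
Cdc20: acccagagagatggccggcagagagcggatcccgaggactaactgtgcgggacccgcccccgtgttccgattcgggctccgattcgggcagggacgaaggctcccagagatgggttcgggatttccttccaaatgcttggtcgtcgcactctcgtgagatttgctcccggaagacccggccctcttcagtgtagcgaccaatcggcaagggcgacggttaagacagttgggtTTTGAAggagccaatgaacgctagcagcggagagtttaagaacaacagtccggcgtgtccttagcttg
Cdca8: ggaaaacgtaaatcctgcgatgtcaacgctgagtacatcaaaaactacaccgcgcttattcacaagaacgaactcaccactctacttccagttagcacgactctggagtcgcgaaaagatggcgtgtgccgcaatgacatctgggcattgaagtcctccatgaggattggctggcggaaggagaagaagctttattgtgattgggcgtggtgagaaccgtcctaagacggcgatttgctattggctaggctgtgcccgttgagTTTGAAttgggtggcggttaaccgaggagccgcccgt
Ccnf: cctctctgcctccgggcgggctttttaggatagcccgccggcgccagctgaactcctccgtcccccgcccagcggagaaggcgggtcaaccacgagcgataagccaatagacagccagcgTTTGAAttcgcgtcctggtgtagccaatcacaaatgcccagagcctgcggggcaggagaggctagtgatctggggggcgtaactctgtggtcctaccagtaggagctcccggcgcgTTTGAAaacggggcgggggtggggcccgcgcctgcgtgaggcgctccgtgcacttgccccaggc
Top2a: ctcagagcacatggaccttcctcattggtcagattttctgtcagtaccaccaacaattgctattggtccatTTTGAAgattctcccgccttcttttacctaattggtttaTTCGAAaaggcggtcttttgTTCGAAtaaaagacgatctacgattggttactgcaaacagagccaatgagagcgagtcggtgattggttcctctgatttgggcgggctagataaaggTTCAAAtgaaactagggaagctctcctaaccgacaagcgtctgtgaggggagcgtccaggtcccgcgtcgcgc

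In the Cdc20 window the match began 18 bases before the start, and in the Cdca8 window 13 bases after it. The Ccnf window held matches beginning 130 and 14 bases before the start, and the Top2a window held 4, the nearest 23 bases before. Pttg1, Birc5 and Cks2 had a window with no match. The 15 bright members with a CHR match had median log2 differences of -1.07, 2.13 and 1.17 in the 3 comparisons, and the 7 with a window lacking it -0.78, 1.51 and 0.92. The latter 7 included both Birc5, with differences of -2.08 and 3.07 in the first comparisons, and Pttg1, with -0.12 in each.

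Other genes of the cell division cycle were compared through 7 lists that hold none of the 44. Among 35 genes of the inner kinetochore and centromere loading, 10 were bright, with medians of -0.09, 0.19 and 0.21 in the 3 comparisons. The 15 bright condensin and cohesin genes had medians of 0.14, 0.04 and 0.22. For 16 of the anaphase-promoting complex the medians were 0.00, 0.26 and 0.24, and for 10 other spindle kinesins and spindle proteins -0.37, 0.64 and 0.47. The 4 bright centriole genes and 20 genes of cell cycle control had medians between -0.10 and 0.25. No gene of these 6 lists passed limma in any comparison. Of their 75 bright genes, 18, 31 and 20 had an unadjusted p under 0.05 in the 3 comparisons. Over all bright genes the shares were 23.4%, 28.5% and 19.2%. The medians of all 6 lists were smaller in size than the members' -1.06, 2.02 and 1.13. Members and lists were chosen with earlier results of these data known, so this gap is description only. Several single genes, chosen after their values were seen, were as far from 0 or nearly so. Ncapg of condensin was at -1.09, 2.45 and 1.36, and the chromosome-binding kinesin Kif22 at -1.08, 2.20 and 1.12. Ncaph was at -0.91, 2.13 and 1.22, and Cdca5 at -0.82, 2.08 and 1.26. Others had opposite signs, such as Numa1 at 0.78, -1.14 and -0.36 and Nipbl at 0.50, -1.10 and -0.59.

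The DNA replication list had a different median from the members in the first comparison. Its 27 bright genes, which copy DNA in S phase, had a median of -0.08 in Irf4-/- IgG against WT IgG, with 11 positive and 16 negative, where the members' median was -1.06. In blockade they were higher for 27 of 27 against Irf4-/- IgG, with a median of 0.81, and for 27 of 27 against WT IgG, with a median of 0.95. In each of these comparisons both blockade arrays lay above both arrays of the other group for 25 of 27. Gins2, a subunit of the replicative helicase, was the single gene that passed, and it rose by 1.32 (SE 0.19, limma adjusted p = 0.0498) against WT IgG. In the first comparison both Irf4-/- IgG arrays lay below both WT IgG arrays for 4 of the 27 genes and above them for 3. Single genes of the list, picked after their values were seen, had the members' order and size. Tk1 was at -1.60, 2.78 and 1.18 in the 3 comparisons and Rrm2 at -1.42, 2.32 and 0.91. The difference between the replication and mitosis lists was not tested.

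**Figure D5:**
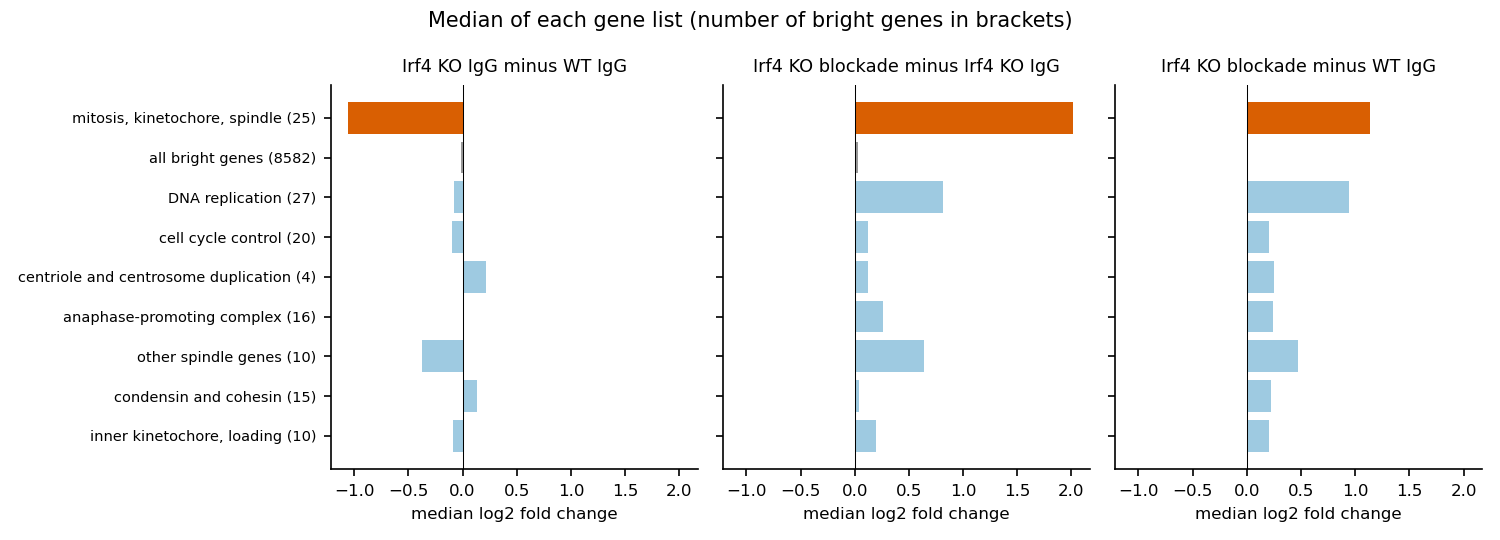
Median log2 fold change of the 25 bright members, of all bright genes and of 7 other cell division lists, with the number of bright genes in brackets. The members have the longest bar in all 3 panels, and DNA replication has a bar near 0 in the first panel and bars of 0.81 and 0.95 in the other two.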

How the data were processed

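Total RNA of sorted cells (0.5 µg) was labelled with Cy3 and hybridised to 1 Agilent array per sample. Intensities come from Agilent Feature Extraction 11.0.1.1 per the file headers, while the submitters' processing notes name 9.1. The deposited table of scaled intensities, converted to log2, was used as an alternative. Processed intensity as deposited was used, without control or outlier-flagged spots, which left 55371 of 56605 probes. Probes were named through RefSeq (58.3%), and the brightest probe stood for a gene. Genes whose log2 intensity averaged 8 or more were quantile-normalised and fitted in limma 3.58.1 (R 4.3.3), with all 6 arrays, 3 groups and Benjamini-Hochberg adjustment over all genes tested. The script was tested on simulated data. The text names every member, with array values for the 10 brightest, those that passed and the extremes. Genes of other lists are named if they passed, or as examples picked after their values were seen. Members and lists were chosen with earlier results of these data known. Probe coordinates (mm9 in the headers) were not used, and 2 arrays a group limit the precision. Median array intensity ranged from 5.17 to 76.6.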

Additional observations from a re-analysis of the deposited data

How the results depend on the processing

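Counts of members passing limma depended on the scale more than medians did. Percentages here are shares of all genes tested that passed. For Irf4-/- IgG against WT IgG the main fit gave 0 passing (1.86%) and a median of -1.06. Scaling all genes by the 75th percentile gave 27 of 44 passing (26 lower, 1 higher, 58.9%) and -1.61. The array median gave 43 of 44 (63.6%) and -3.27. A block for slide row gave 1 of 25 (1.03%), and a minimum of 5 for log2 intensity gave 1 of 43 (6.59%). For blockade against Irf4-/- IgG the main fit gave 1 passing (0.326%) and a median of 2.02. The 75th percentile gave 40 of 44 (39 higher, 1 lower, 58.8%) and 2.74, and the array median 43 of 44 (61.9%) and 4.53. Slide row gave 0 (0%), and the minimum of 5 gave 10 of 43 (5.90%). Centring on the bright-gene median gave 17 of 25 (7.34%). Minimums of 7 and 9 gave 2 of 31 (0.591%) and 3 of 19 (0.442%). Normexp background gave 5 of 26 (0.589%) and a replicate block 3 of 25 (0.350%). For blockade against WT IgG the main fit gave 1 passing (1.11%). The count was 2 of 25 with the bright-gene median (1.57%), cyclic loess (1.51%) or only the 4 arrays compared (1.21%). It was 0 with 75th percentile, array median, minimums of 7 and 5, normexp, replicate block and slide row. In those settings 0% to 0.852% of all genes passed. Leaving out an array gave medians of -1.56 to -0.51, 1.68 to 2.62 and 0.72 to 1.44 in the 3 comparisons. For blockade against Irf4-/- IgG, Cenpw kept its call in 13 of 19 alternative settings, those without an array included. Against WT IgG it kept its call in 8 of 19. Cks2 turned to -0.84 (75th percentile) and -2.51 (array median) and Spc24 to -1.63 (array median) in the first comparison, and Pttg1 to 1.04 and 2.83 in the second. The sign was kept in every setting for 20, 24 and 22 of 25 members; the exceptions were Cks2, Cenpe, Spc24, Nusap1 and Mki67, then Pttg1, then Cenpe, Incenp and Mki67. Both unnormalised scalings also moved all bright genes; other causes were not tested. Over all bright genes, same-numbered arrays did not deviate together (correlations 0.02, -0.20 and 0.03), so they were not treated as pairs. Among the members, array 2 was the higher for 24 of 25 in WT IgG, 25 of 25 in Irf4-/- IgG and 7 of 25 in blockade. A block for slide or scan could not be fitted, since all arrays share both. The slide row, the deposited values and the minimum of 5 were chosen after seeing the data. With the deposited values the counts were 0, 1 and 1, beside 1.86%, 0.326% and 1.11% of all genes. Dim spots near background limit Ttk, Nuf2, Aurkb, Anln and Kif2c.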
